A study of Mus musculus with 4 samples.

Results

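The 9 genes described here encode enzymes of the tricarboxylic acid (TCA) cycle other than isocitrate dehydrogenase: Cs, Ogdh, Dlst, Suclg1, Suclg2, Sucla2, Fh1, Mdh1 and Mdh2. They were chosen by name, and each has 1 row in the files, out of 32868 gene names. All 9 were among the 10690 genes that passed the filter on low values. The RNA came from tibialis anterior, a mostly fast-fibre leg muscle, of C57BL/6 mice at postnatal day 21. The Nf1-KO group (Nf1flox/flox/Myf5+) had 2 libraries, and the Het group (Nf1flox/+/Myf5+) had 2. Both groups thus carry at least 1 floxed Nf1 allele and the Myf5 label. Myf5 is read here as the driver of a Cre recombinase active in muscle precursors, which the labels do not spell out, and no group free of floxed alleles is part of the comparison. Nf1 encodes neurofibromin, a GTPase-activating protein that turns Ras off, and the series' title names muscle growth and metabolic homeostasis as its subject.

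The TCA cycle oxidises acetyl groups in the mitochondrial matrix and hands the electrons to the respiratory chain as NADH and reduced flavin. In skeletal muscle the enzymes are more abundant in oxidative than in glycolytic fibres, and citrate synthase activity is a common index of mitochondrial content. Some of its acids are also made or used in the cytosol, where Mdh1 works as part of the malate-aspartate shuttle that carries reducing power into the mitochondrion.

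Each library holds 1 RPKM value per gene, that is reads per length of gene and per sequencing depth, a unit read from the values. The steps of the low values put the depth at 36600000 and 58100000 reads for Het, against 47000000 and 51000000 for Nf1-KO, so that the groups overlapped. Behind the members stood 3309 (Suclg2) to 55373 (Ogdh) normalised reads per library on average, as the authors' deposited table gives them. Nf1 itself was 1.09 and 1.01 RPKM in Het and 0.89 and 0.85 RPKM in Nf1-KO, lower in both libraries labelled Nf1-KO (log2 fold change -0.18, limma adjusted p 0.041). The difference was -0.33 with a pseudocount of 0.1 (limma adjusted p 0.045) and -0.38 in the authors' deposited table (adjusted p 0.0026). The call was lost in the fit with a replicate block (limma adjusted p 0.054), with no filter (0.075), with values as deposited (-0.13, adjusted p 0.094) and without any 1 of the 4 libraries (-0.21 to -0.15, adjusted p 0.062 to 0.176). This whole-gene value also counts exons outside any deletion and cells in which Nf1 was not deleted. The labels do not say whether the libraries come from separate animals, so p-values measure the spread between these libraries only. Fibre genes were abundant in every library, with 7 fibre markers such as Acta1 and Ckm summing to 41618 to 50510 RPKM.

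The 9 genes lie on 7 chromosomes. In GENCODE M21 (build GRCm38), Cs spans chr10:128337734-128362479 and Ogdh spans chr11:6291633-6356642. Dlst spans chr12:85110833-85134845, Sucla2 chr14:73525319-73596142 and Fh1 chr1:175600374-175625635. Suclg1 (chr6:73248382-73276911) and Suclg2 (chr6:95473009-95718800) share chromosome 6. Mdh1 is at chr11:21556787-21572367 and Mdh2 at chr5:135778480-135790398. All are protein-coding, with 9 to 23 exons in the longest coding transcript.

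Sequence upstream of the start is shown for the gene that differed least between the groups (Suclg1), the one that differed most (Suclg2), the first enzyme of the cycle (Cs), and the one with a full cyclic AMP response element before its first exon (Ogdh). The stretches are RefSeq promoter windows of build GRCm38.p6, 5′ to 3′ on the gene's strand. Each ends at the last base before the start of the RefSeq window's transcript, which need not be the GENCODE start given above. The exception is Suclg1, where GENCODE starts further upstream and the stretch ends just before that start. They are chr6:73248262-73248381 (plus strand) for Suclg1, chr6:95718847-95718966 (minus strand) for Suclg2, chr10:128337607-128337726 (plus strand) for Cs and chr11:6291477-6291596 (plus strand) for the most upstream of the 6 Ogdh windows. Capitals mark GC boxes (GGGCGG on either strand) and the response element (TGACGTCA).
Suclg1: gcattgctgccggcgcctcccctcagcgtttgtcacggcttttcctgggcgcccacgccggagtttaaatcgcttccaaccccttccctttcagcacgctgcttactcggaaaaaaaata
Suclg2: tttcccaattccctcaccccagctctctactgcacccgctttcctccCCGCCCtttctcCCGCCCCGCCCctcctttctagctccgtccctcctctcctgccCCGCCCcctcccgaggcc
Cs: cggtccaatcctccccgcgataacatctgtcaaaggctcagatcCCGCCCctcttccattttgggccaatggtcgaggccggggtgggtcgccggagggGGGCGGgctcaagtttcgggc
Ogdh: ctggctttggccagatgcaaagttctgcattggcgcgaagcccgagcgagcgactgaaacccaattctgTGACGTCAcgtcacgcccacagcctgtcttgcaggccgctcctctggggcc

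Windows of 300 bases, from 250 before to 50 after the start, were searched on both strands for 6 motifs. GC boxes were found in windows of 8 of the 9 genes, all but Suclg1, and in 35.6% of all 32817 mouse windows. The response element TGACGTCA was found in windows of Ogdh and Mdh2, and in 1.79% of all windows. An NRF1 motif (GCGCANGCG) was found in Sucla2 and in 2 of the 6 Ogdh windows (6.24% of all windows). An ETS motif (CCGGAAGT) was found in Dlst (3.89%). These NRF1 and ETS matches did not lie before the exons that GENCODE annotates for their genes. The same holds for the TGACGTCA of Mdh2 and the GC box of Sucla2. The shares are per window, whereas Ogdh has 6 windows. The letters of the ERR motif (TNAAGGTCA) and the YY1 motif (AAGATGGCG) were not found in any window of the 9 genes, and occur in 1.28% and 1.40% of all windows. In Mdh1 the whole window lies inside the transcript that GENCODE annotates, so none of it is shown.

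All 9 genes were higher in both Nf1-KO libraries than in both Het libraries, and all 9 passed the test as higher. Across all tested genes, 24.9% were called higher and 25.4% lower in Nf1-KO at an adjusted p under 0.05 (limma, Benjamini-Hochberg). At an adjusted p under 0.01, where all 9 members also passed, the share called higher was 17.1%, and with values as deposited in place of scaled ones it was 35.2%. Among the 3006 tested genes with a mean of at least 10 RPKM, where all the members lie, 36.0% were called higher. Both Nf1-KO libraries lay above both Het libraries in 38.2% of tested genes after scaling, and the share with values as deposited is not given. The median log2 fold change was 0.35 over the 9 genes and 4.2e-04 over all tested genes. Differences were moderate, from 0.15 to 0.61 on the log2 scale. Their summed level was 1922 and 1899 RPKM in Het and 2633 and 2604 RPKM in Nf1-KO. In bulk muscle, a change in RNA per fibre and a change in the share of cells or fibres of 1 type cannot be told apart. Fold changes are of log2(RPKM + 1) after scaling between libraries, which understates the change of low genes. Levels are printed as deposited, and without scaling the fold changes of the members were larger, from 0.24 (Suclg1) to 0.70 (Suclg2).

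**Figure D1:**
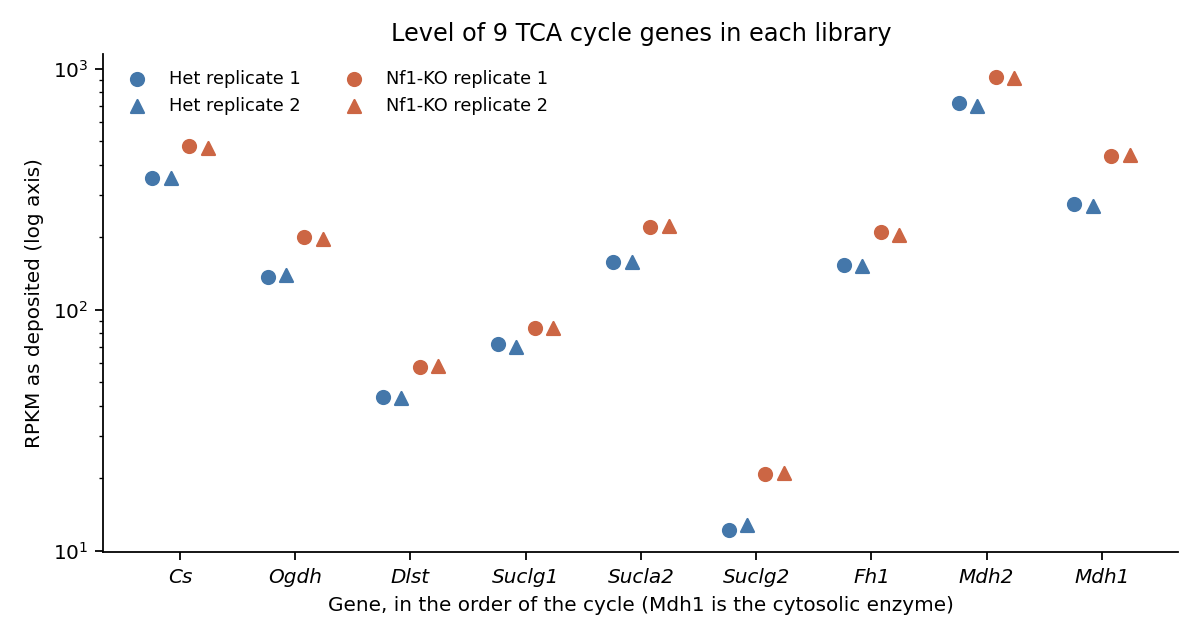
Level of each of the 9 genes in each library, as deposited RPKM on a log axis, with circles for replicate 1 and triangles for replicate 2. In every gene both Nf1-KO points lie above both Het points, from 12.2 to 21.1 RPKM in Suclg2 to 700 to 926 RPKM in Mdh2.

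Cs encodes citrate synthase, which joins acetyl-CoA to oxaloacetate at the entry of the cycle. Its level was 353.2 and 353.9 RPKM in Het against 477.7 and 467.1 RPKM in Nf1-KO. The groups did not overlap, and the gap was far wider than the distance between replicates. On the log2 scale Cs rose by 0.32 ± 0.019 (standard error; limma adjusted p 3.9e-05).

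Ogdh and Dlst encode the E1 and E2 subunits of the 2-oxoglutarate dehydrogenase complex, which turns 2-oxoglutarate into succinyl-CoA. Ogdh was 136.6 and 139.4 RPKM in Het and 200.1 and 196.5 RPKM in Nf1-KO, and it rose by 0.43 ± 0.022 on the log2 scale (limma adjusted p 2.2e-05). Dlst was 43.6 and 42.9 RPKM in Het and 57.7 and 58.4 RPKM in Nf1-KO. It rose by 0.32 ± 0.024 on the log2 scale (limma adjusted p 9.2e-05). Both subunits were higher in each Nf1-KO library. The E3 subunit, Dld, which this complex shares with pyruvate dehydrogenase, held 127.6 ± 0.304 RPKM in Het against 175.6 ± 0.537 RPKM in Nf1-KO (SD, n = 2) and rose by 0.36 on the log2 scale. Ogdhl, a related E1 gene, was 0.29 and 0.31 RPKM in Het and 0.36 and 0.27 RPKM in Nf1-KO and was too low to test.

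Succinyl-CoA ligase converts succinyl-CoA to succinate while making a nucleoside triphosphate. Its alpha subunit, Suclg1, pairs with a beta subunit that makes ATP (Sucla2) or GTP (Suclg2). The 3 subunit genes differed in how far they rose. Suclg1 was 72.3 and 69.8 RPKM in Het and 84.1 and 84.2 RPKM in Nf1-KO, and its log2 fold change of 0.15 (standard error 0.025, limma adjusted p 0.0033) was the smallest of the 9. Sucla2 was 158.2 and 158.3 RPKM in Het and 220.7 and 222 RPKM in Nf1-KO, a log2 fold change of 0.39 (standard error 0.018, limma adjusted p 1.4e-05). Suclg2 was 12.2 and 12.8 RPKM in Het and 20.8 and 21.1 RPKM in Nf1-KO, and its log2 fold change of 0.61 (standard error 0.034, limma adjusted p 3.0e-05) was the largest of the 9. The ATP-forming subunit was the abundant beta subunit in every library. A processed pseudogene, Gm15163, matches 1302 bases of the Suclg2 transcript at 98.9% identity, and how reads shared by such copies were counted is not given in the sources used here. The value of Suclg2 is uncertain to that extent.

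Fh1 encodes fumarase, which hydrates fumarate to malate. It was 152.8 and 152.3 RPKM in Het and 210.3 and 204.8 RPKM in Nf1-KO, with no overlap between groups. Fh1 rose by 0.35 ± 0.022 on the log2 scale (limma adjusted p 4.7e-05).

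Mdh2 and Mdh1 encode the mitochondrial and the cytosolic malate dehydrogenase, which interconvert malate and oxaloacetate. Mdh2 closes the cycle, whereas Mdh1 acts outside the mitochondrion. Mdh2 had the highest level of the 9 genes, at 718.2 and 699.8 RPKM in Het and 926.1 and 913.0 RPKM in Nf1-KO, and a log2 fold change of 0.28 (standard error 0.019, limma adjusted p 7.5e-05). Mdh1 was 275.5 and 269.9 RPKM in Het and 435.4 and 436.8 RPKM in Nf1-KO. Its log2 fold change of 0.58 (standard error 0.018) had the smallest adjusted p of the 9 (limma, 2.8e-06). The cytosolic gene thus rose by more on the log2 scale than the mitochondrial one. In GENCODE, 52 exonic bases of Mdh1 overlap Wdpcp on the opposite strand, a gene listed at 0 in the 4 libraries.

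With the trended variance, the 95% intervals of Suclg1, Suclg2 and Mdh1 did not overlap those of the remaining 6 members. These are intervals of single genes, and differences between genes were not tested. With no variance trend the standard errors were larger, at 0.038 for Suclg1 and 0.0375 for Mdh2 in place of 0.0248 and 0.0194. The intervals of that fit are not given, so the separation may not hold there. The bounds that follow are those with the trend. The upper bound for Suclg1, 0.21, lay below the lower bound of each other member, the nearest being Mdh2 at 0.23. The lower bounds for Suclg2 and Mdh1, 0.53 and 0.54, lay above the upper bound of each other member, the nearest being Ogdh at 0.48. The remaining 6 genes had fold changes from 0.28 to 0.43, and their intervals did not all overlap either. The upper bound for Mdh2, 0.328, lay below the lower bounds for Sucla2 (0.344) and Ogdh (0.373). The upper bound for Cs, 0.369, also lay below the lower bound for Ogdh. The authors' deposited table, which compares the same groups of this series and is not independent, also called all 9 higher. At an adjusted p under 0.05 it called 15.0% of its genes higher. Its log2 fold changes ran from 0.14 for Suclg1 (adjusted p 1.2e-05) to 0.64 for Suclg2 (adjusted p 1.6e-32), with 0.57 for Mdh1 and 0.27 for Mdh2.

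**Figure D2:**
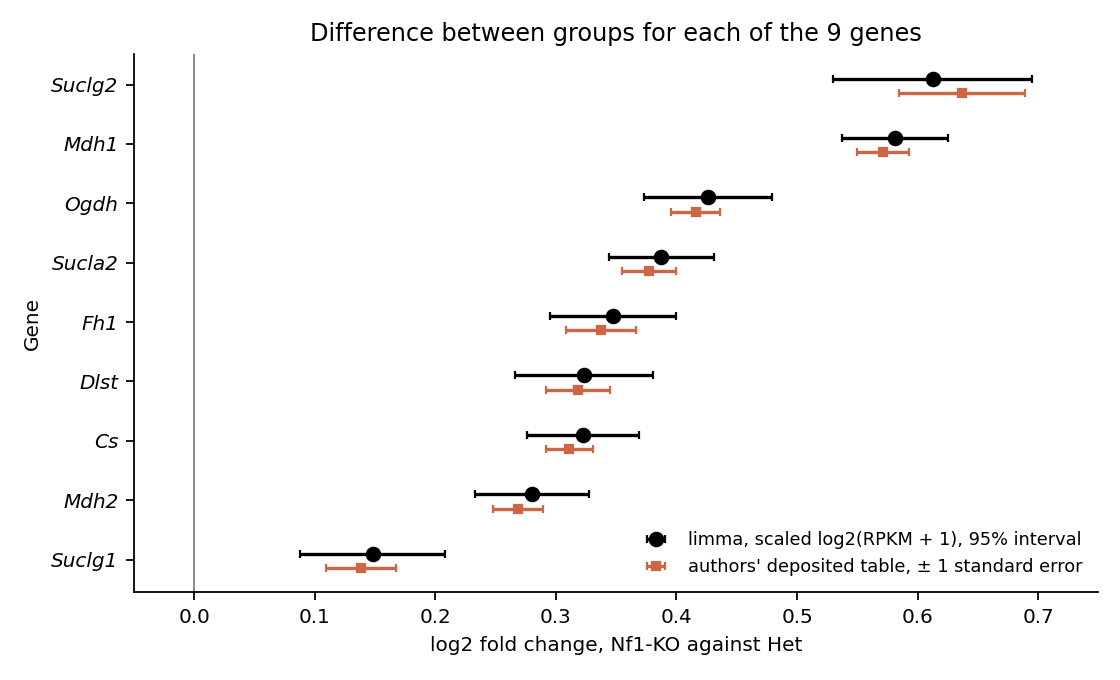
The log2 fold change of Nf1-KO against Het for each gene, as the limma estimate with its 95% interval (black circles) and as the value in the authors' deposited table with 1 standard error (red squares). Suclg1 lies lowest at 0.15 and Suclg2 and Mdh1 highest at 0.61 and 0.58 in the limma fit.

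Ratios within a library need no scaling between libraries, and 4 were computed. Sucla2 over Suclg2, the ATP-forming against the GTP-forming subunit, was 12.9 and 12.4 in Het and 10.6 and 10.5 in Nf1-KO. Suclg1 over the sum of both beta subunits was 0.424 and 0.408 in Het and 0.348 and 0.346 in Nf1-KO. Mdh2 over Mdh1 was 2.61 and 2.59 in Het and 2.13 and 2.09 in Nf1-KO. These 3 ratios were lower in both Nf1-KO libraries. The mean of the first fell by 16.6%, that of the second fell by 16.5% and that of the last fell by 18.9%. Ogdh over Dlst was 3.14 and 3.25 in Het and 3.47 and 3.37 in Nf1-KO, which was 7.08% higher. None of the 4 ratios overlapped between groups. How often ratios of other gene pairs separate was not computed, so this cannot be called particular to these 4. In single genes separation was common, with both Nf1-KO libraries above both Het libraries in 38.2% of tested genes after scaling. Each difference of means was larger than the SD in either group. Mdh2 over Mdh1 averaged 2.60 ± 0.00996 in Het against 2.11 ± 0.0259 in Nf1-KO, and Ogdh over Dlst 3.19 ± 0.0790 against 3.42 ± 0.0727 (SD, n = 2). For each ratio the exact two-sided permutation test gave p = 0.333, the smallest value that this test can give with 2 libraries against 2. No other test of the ratios was run.

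**Figure D3:**
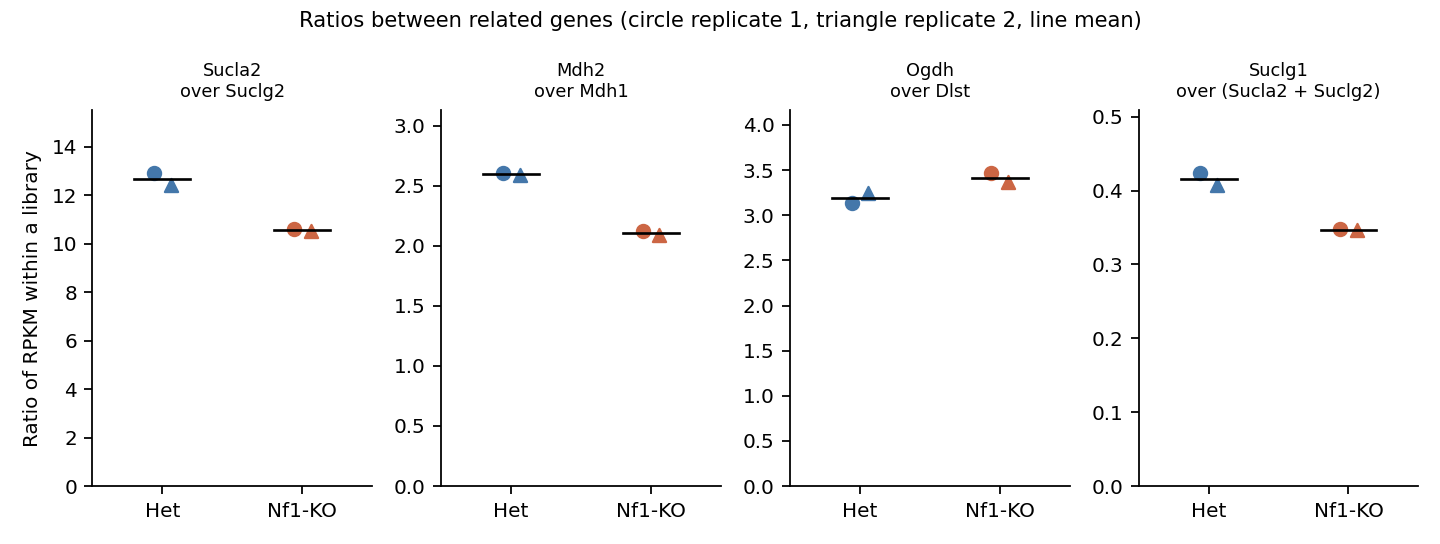
Ratio of RPKM between related genes in each library, on axes that start at 0, with circles for replicate 1, triangles for replicate 2 and a line at the group mean. The ratios of Sucla2 over Suclg2, Mdh2 over Mdh1 and Suclg1 over both beta subunits are lower in both Nf1-KO libraries, and Ogdh over Dlst is higher.

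Levels can be set side by side because RPKM is per length. The order was the same in each of the 4 libraries: Mdh2, Cs, Mdh1, Sucla2, Fh1, Ogdh, Suclg1, Dlst and Suclg2. The closest neighbours were Sucla2 and Fh1 in Het, at 158.3 ± 0.106 and 152.6 ± 0.318 RPKM (SD, n = 2), and Fh1 and Ogdh in Nf1-KO, at 207.6 ± 3.85 and 198.3 ± 2.55 RPKM (SD, n = 2), so that even these differed by more than their SD. The order depends on the gene length behind each value. From the reads per RPKM in the authors' deposited table, the implied length was 3833 bases for Suclg1 and 6557 for Dlst, 2.52 and 2.37 times the longest coding transcript in GENCODE, and 6925 bases (1.68 times) for Ogdh. For Fh1 it was 1620 bases, 0.615 times. The middle 50% of 4544 genes lay between 0.96 and 1.10 times. With the authors' normalised counts divided by the GENCODE length, Ogdh moved from place 6 to 4 and Fh1 from place 5 to 8, while Mdh2, Cs and Mdh1 stayed at places 1 to 3 and Suclg2 at place 9. Apart from the pseudocount, the length does not enter a fold change of 1 gene or the relative change of a ratio of 2 genes.

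The other enzymes of the cycle were compared in the same fit. Of 10 such genes listed, 9 could be tested, of which 8 were higher and 1 lower. Of all tested genes, 24.9% were called higher and 25.4% lower. The median of the 9 was 0.36 on the log2 scale. The succinate dehydrogenase genes Sdha, Sdhb, Sdhc and Sdhd had log2 fold changes of 0.48, 0.58, 0.36 and 0.33. Of the NAD-dependent isocitrate dehydrogenase, Idh3b and Idh3g rose by 0.31 and 0.36 on the log2 scale. Its catalytic gene Idh3a was 281.6 and 281.8 RPKM in Het and 283.6 and 288 RPKM in Nf1-KO. After scaling this was a log2 fold change of -0.07 (limma adjusted p 0.014), beside -0.09 in the authors' deposited table (adjusted p 2.2e-04). With values as deposited the log2 fold change of Idh3a was 0.02, so its direction depends on the scaling. Its call was also lost without Het replicate 2 (limma adjusted p 0.058), Nf1-KO replicate 1 (0.12) or Nf1-KO replicate 2 (0.056). Idh2, the NADP-dependent mitochondrial enzyme, rose by 2.18 on the log2 scale, beyond the range of the 9 members.

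Genes that feed, drain or connect the cycle moved less evenly. Of 21, 20 were tested, with 12 higher, 2 lower and 6 that did not pass, beside 24.9% higher and 25.4% lower of all tested genes. The median of the 20 was 0.18. The largest increases were in Slc25a22, a mitochondrial glutamate carrier, and Got1, the cytosolic aspartate aminotransferase, with log2 fold changes of 0.87 and 0.81. Got1 was 213.2 and 212.6 RPKM in Het and 399.9 and 399.0 RPKM in Nf1-KO, and like Mdh1 it belongs to the malate-aspartate shuttle. The remaining shuttle genes, named here after their values were seen, were Got2 (0.55), Slc25a11 (0.41) and Slc25a12 (0.26), each higher, and Slc25a13, which at 0.24 and 0.25 RPKM in Het and 0.47 and 0.50 RPKM in Nf1-KO was too low to test. The 2 genes that fell encode malic enzymes, which turn malate into pyruvate, while the third malic enzyme gene of the list, Me3, rose. Cytosolic Me1 fell by 1.11 on the log2 scale, from 63.4 and 63.6 RPKM in Het to 30.4 and 31.4 RPKM in Nf1-KO. Mitochondrial Me2 was near the filter, at 1.18 and 0.99 RPKM in Het and 0.67 and 0.64 RPKM in Nf1-KO (log2 fold change -0.38). Mitochondrial Me3 was 8.35 and 8.50 RPKM in Het and 11.14 and 10.98 RPKM in Nf1-KO (log2 fold change 0.27, limma adjusted p 0.0013).

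Regulators known to act on genes of mitochondrial enzymes were tested as a list of 11, with 6 higher, 1 lower and 4 that did not pass. Of all tested genes, 24.9% were called higher and 25.4% lower. The median of the 11 was 0.14. Ppara, a nuclear receptor for fatty acids, was 3.71 and 3.97 RPKM in Het and 8.73 and 8.57 RPKM in Nf1-KO, a log2 fold change of 0.92. Esrrb, an oestrogen-related receptor, followed at 0.50. The lowest values past the threshold were 0.14 for Perm1, a muscle regulator of oxidative genes, and -0.17 for the coactivator gene Ppargc1b. Ppargc1b had a limma adjusted p of 0.047 and was not called in the authors' deposited table (adjusted p 0.071). The related Ppargc1a was called higher (log2 fold change 0.37, limma adjusted p 5.8e-04). It was 5.82 and 6.08 RPKM in Het and 8.46 and 8.56 RPKM in Nf1-KO. The call of Ppargc1b was lost without Het replicate 2 (limma adjusted p 0.181), Nf1-KO replicate 1 (0.151) or Nf1-KO replicate 2 (0.129). The 4 that did not pass had log2 fold changes from 0.04 (Esrrg) to 0.12 (Gabpa). With values as deposited, 10 of the 11 were called higher and 0 lower, beside 35.2% of all tested genes called higher.

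**Figure D4:**
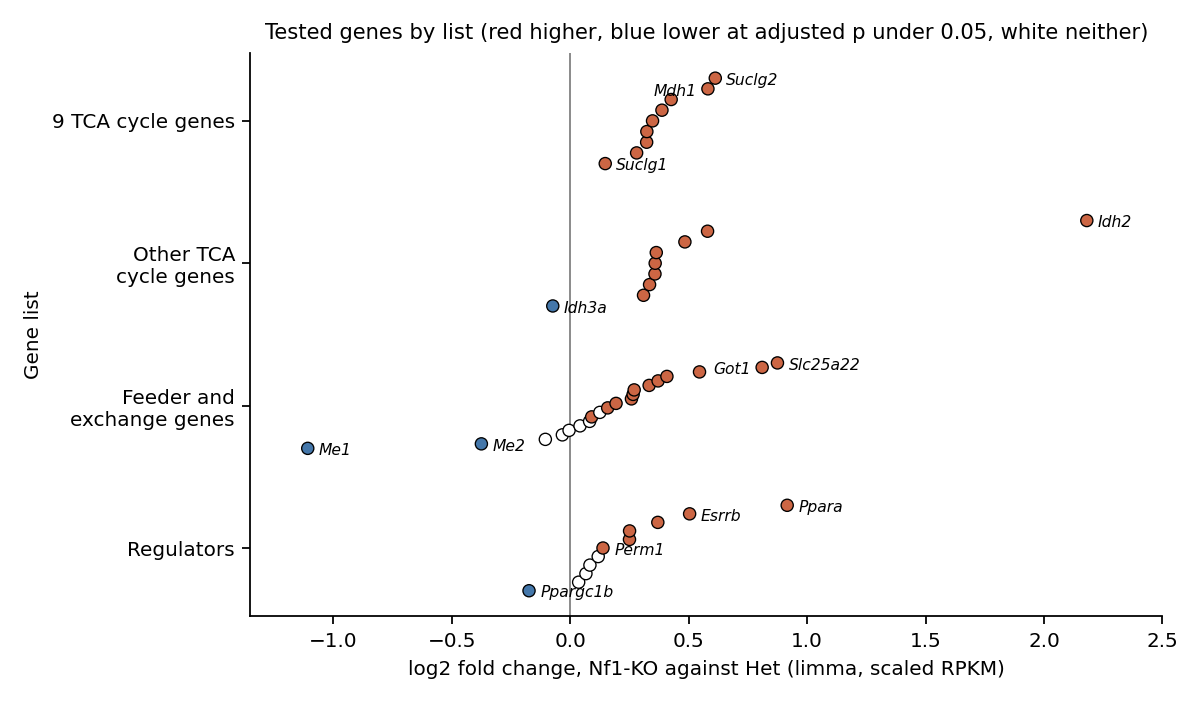
The log2 fold change of every tested gene in 4 lists, 1 point per gene, ordered by value within a list and coloured red where called higher, blue where called lower and white where neither. The 9 TCA cycle genes lie between 0.15 and 0.61, whereas the feeder and exchange genes run from -1.11 to 0.87.

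The genes whose profile was nearest to the mean profile of the 9 members were Prpf19, Cat, Acta2, Klf13 and Mfn1. Nearness was the Euclidean distance between log2 values centred on the Het mean, over 4 libraries and among 4817 genes of at least 5 RPKM. Distances were 0.0112 to 0.0141, and the log2 fold changes of the 5 genes ran from 0.37 to 0.39. With 4 libraries in 2 groups this ranks genes almost wholly by the size of their group difference. Among the members themselves, Sucla2 was nearest to the mean profile (0.0152), and Suclg1 (0.331), Suclg2 (0.331) and Mdh1 (0.284) were farthest.

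Markers of other cells and fibres also differed between the groups, beside 24.9% of all tested genes called higher and 25.4% called lower. The 7 fibre markers summed to 50212 and 50510 RPKM in Het and 42054 and 41618 RPKM in Nf1-KO, with 6 called lower and Myh1 higher. Myh4, the myosin heavy chain of the fastest glycolytic fibres, fell from 6767 and 7015 RPKM in Het to 3508 and 3428 RPKM in Nf1-KO (log2 fold change -1.08, limma adjusted p 7.3e-07). Myh1, the myosin of fast fibres of a more oxidative kind, rose from 2354 and 2443 RPKM to 3712 and 3644 RPKM (log2 fold change 0.52, limma adjusted p 1.0e-05). The 4 Schwann cell markers summed to 1.86 and 1.89 RPKM in Het and 4.12 and 3.99 RPKM in Nf1-KO, with 4 of 4 called higher. Their single values were low, from 0.24 RPKM (Sox10, Het) to 1.92 RPKM (Mbp, Nf1-KO). The 5 immune markers summed to 8.59 and 8.86 RPKM in Het and 27.6 and 27.5 RPKM in Nf1-KO, most of it from Lyz2, with 3 of 3 tested called higher and Adgre1 listed at 0. The 4 fibroblast markers summed to 70.2 to 72.4 RPKM in Het and 107.6 to 108.0 RPKM in Nf1-KO, with 4 of 4 called higher. Adipocyte markers summed to 8.12 to 9.18 RPKM in Het and 19.6 to 20.2 RPKM in Nf1-KO, with 2 of 3 tested called higher. Most of that sum was Cfd, the complement factor adipsin, at 5.87 and 6.80 RPKM in Het and 17.3 and 17.7 RPKM in Nf1-KO. Adipoq, the adiponectin gene, was 1.21 ± 0.141 RPKM in Het and 1.00 ± 0.0707 RPKM in Nf1-KO (SD, n = 2) and did not pass. Lep, the leptin gene, was 0.21 and 0.22 RPKM in Het and 0.03 and 0.05 RPKM in Nf1-KO and was too low to test here, while the authors' deposited table gave it a log2 fold change of -2.40 (adjusted p 0.0025). Plin1 was 0.34 to 0.41 RPKM in Het and 0.35 RPKM in both Nf1-KO libraries. Of the 3 brown adipocyte markers, Ucp1 was listed at 0. Elovl3 averaged 0.28 RPKM in Het and 0.385 RPKM in Nf1-KO and was too low to test. Cidea, the 1 tested, was called higher (log2 fold change 0.74, limma adjusted p 0.0014). Its level was 0.885 ± 0.191 RPKM in Het and 2.265 ± 0.361 RPKM in Nf1-KO (SD, n = 2). The authors' deposited table gave Cidea a log2 fold change of 1.23 (adjusted p 8.5e-04). The 5 cardiac or slow fibre markers summed to 4.15 to 4.20 RPKM in Het and 8.50 to 9.20 RPKM in Nf1-KO, with 2 of 3 tested called higher. The genes called were Tnnt2 (1.46 and 1.39 RPKM in Het, 5.23 and 4.75 RPKM in Nf1-KO) and Myh6. The slow myosin gene Myh7 was lower in both Nf1-KO libraries, at 1.53 and 1.66 RPKM in Het and 1.47 and 1.36 RPKM in Nf1-KO, and did not pass (log2 fold change -0.16, limma adjusted p 0.066). Of the 5 endothelial markers 2 were called higher and 1 lower. Of the satellite cell and blood markers 0 of 2 and 0 of 1 tested passed, with Hbb-b1 listed at 0. Some markers called higher here did not pass in the authors' deposited table. They were Sox10 (Schwann, adjusted p 0.14), Dcn (fibroblast, 0.064), Cidec (adipocyte, 0.067), and the endothelial Pecam1 (0.20) and Tek (0.13). The other markers called higher passed there too. The part of these cells and fibres in the level of the 9 enzymes was not tested.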

How the data were processed

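Per the submitters' processing notes, STAR 2.4.2a, DESeq2 and the mouse build mm9 were used. The counting program, annotation and strandedness are not given in the sources used here. The authors deposited 1 value per gene and library (34682 rows), read from the values as RPKM, and a comparison table that, per the file headers, has the layout of DESeq2 output. Its signal column, per the file headers, is a mean over libraries of counts, normalised by the authors, beside a deposited log2 fold change, a deposited test score and the authors' p-value and adjusted p-value.

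From the RPKM files, 33 rows with a number as name were left out and the highest-mean copy of a name was kept, although each member has 1 row. A gene was tested where 2 or more libraries reached 0.5 RPKM. The test was limma (3.58.1, R 4.3.3) with a trended variance, run on log2(RPKM + 1) after dividing each library by a trimmed mean of its log ratios, without weights (factors 0.968, 0.967, 1.03 and 1.03), and p-values were adjusted by Benjamini-Hochberg. Means and SD are of deposited values. Depth was estimated from the steps of low values in transcripts under 400 bases, and the reads per RPKM of the comparison table imply a mean close to these estimates. The limma step was also run on simulated data, and the outcome is not given here. Far fewer genes were changed there than were called in these data, so that run does not check scaling or error rates here. Copies were searched with blastn 2.17.0 at 90% identity over at least 200 bases. Positions are those of GRCm38, since no genome of build mm9 was used here.

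Named were the 9 members, the other enzymes of the cycle, of the feeder and regulator lists the 2 highest and 2 lowest changes past the threshold, and the 5 genes nearest in profile. Members and lists were chosen with earlier results of these data known. Ppargc1a was named beside Ppargc1b after its value was seen. One item of the list of other cycle enzymes and one of the marker lists are not reported here. Alternatives covered scaling, pseudocount, filter, variance trend, copies, threshold, replicate block and each library left out.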

Additional observations from a re-analysis of the deposited data

How the results depend on the processing

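All 9 members kept their direction and their call in the 13 alternative fits and at an adjusted p under 0.01, 126 of 126 values. The smallest fold change was 0.12 (Suclg1, scaling without the 20 most abundant genes) and the largest adjusted p 0.029 (Suclg1, no variance trend). With values as deposited, 66.6% of all called genes were higher, against 49.5% after scaling, and the median log2 fold change of tested genes was 0.07. Libraries that share a replicate number did not deviate together (correlation -0.0179 over tested genes), so no pairing is assumed. A fit with a replicate block called 5352 genes against 5382, with 9 of 9 members among them.

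Smaller counts moved. Idh3a turned from -0.07 to 0.0206 with values as deposited. The 1 lower gene of the other cycle enzymes (Idh3a) became 0 without a variance trend, with values as deposited and at 0.01, and ran from 0 to 1 when libraries were left out. It was 0 without Het replicate 2, without Nf1-KO replicate 1 and without Nf1-KO replicate 2. The 2 lower feeder genes became 1 when each library had to reach 1 RPKM, since fewer genes were tested. Regulators called higher went from 6 to 10 with values as deposited, while the share of all tested genes called higher went from 24.9% to 35.2%. The 1 lower regulator (Ppargc1b) became 0 with no filter, without a variance trend, with values as deposited and at 0.01. It ran from 0 to 1 when libraries were left out, with 0 for the same 3 libraries. The log2 difference of Sucla2 over Suclg2 went from -0.26 to -0.22 with a pseudocount of 1, which pulls a ratio towards 1, most where a level is low. Elsewhere the cause was not tested.

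With 2 libraries a group, the calls rest on variance estimates that limma moderates over all genes.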
